A study of Homo sapiens with 8 samples.

Results

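The genes described here are the clustered replication-dependent histone genes of the human genome, which encode the linker histone H1 and the core histones H2A, H2B, H3 and H4. They were taken from the deposited gene table as every protein-coding gene whose name begins with HIST1H, HIST2H, HIST3H or HIST4H. This gave 71 of 58735 genes: 6 for H1, 17 for H2A, 18 for H2B, 15 for H3 and 15 for H4. Total RNA had been sequenced from SV-HUC1, an established urothelial cell line immortalised with SV40. Of the 8 cultures, 4 were untreated controls and 4 were kept for 24 h in medium with 20 mU per ml of glucose oxidase, which oxidises glucose and so generates hydrogen peroxide. All cultures shared the same line and serum-containing medium, and no group received hydrogen peroxide alone or inactive enzyme. The labels call the libraries biological replicates 1 to 4 of each group. Nothing in them says that equal numbers mark the same experiment.

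Replication-dependent histone genes are transcribed mainly in S phase, when newly made DNA has to be packed into nucleosomes. Their classical messenger RNAs carry no poly(A) tail: they are cut shortly after a conserved stem-loop that the stem-loop binding protein SLBP recognises, and they are destroyed quickly when DNA synthesis stops. Some of the genes also give a longer transcript that runs past the stem-loop and ends in a poly(A) tail, mostly in cells that leave the cycle. The labels speak of total RNA and do not say whether poly(A)-tailed RNA was selected, so which form each read came from cannot be told apart in gene counts.

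The stem-loop was read from the GENCODE release 29 transcripts, the release of the deposited gene table. It is shown here because the position of a model's end relative to it sets which reads could be counted. A match to the histone stem-loop consensus was found after the stop codon in 32 of the 71 genes (45.1%). In the transcripts of all other protein-coding genes, a match anywhere on the sense strand was found in 6 of 19613 (0.0306%). The forms found are written as DNA, with the 6 bases of each side of the stem in capitals and the loop in lower case.
HIST3H2A: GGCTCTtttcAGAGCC
HIST1H2BD: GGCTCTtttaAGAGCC
HIST1H4E: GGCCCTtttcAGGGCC
HIST1H4I: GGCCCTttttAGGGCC
HIST1H3E: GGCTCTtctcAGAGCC
HIST1H2AG: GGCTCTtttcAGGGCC
The first form was carried by 17 genes, among them HIST1H2AC and HIST1H3H. The second was carried by 5 genes of H2B and H3, and the third by 5 and the fourth by 3 genes of H4. The last 2 forms were found in 1 gene each.

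Most of these genes stand close together, and 2 start sites in opposite directions often share 1 promoter. The stretches below come from RefSeq (build GRCh38.p14) and lie before the start of genes described further on. Each ends before the earlier of its RefSeq start and the start in the deposited table: the last base shown for HIST1H1C and HIST1H3H lies 43 and 14 bases before the deposited start. The HIST1H2AC and HIST1H4E stretches end just before the deposited start, which lies 27 and 58 bases before the RefSeq start. They are given 5′ to 3′ along the strand of the named gene. Capitals mark 4 short motifs known from histone promoters, searched on both strands: TATAAA (the TATA box), CCAAT, the octamer ATTTGCAT bound by OCT factors, and AAACACA, the H1 box.
HIST1H2AG, chr6:27132796-27133041, plus strand, facing HIST1H2BJ: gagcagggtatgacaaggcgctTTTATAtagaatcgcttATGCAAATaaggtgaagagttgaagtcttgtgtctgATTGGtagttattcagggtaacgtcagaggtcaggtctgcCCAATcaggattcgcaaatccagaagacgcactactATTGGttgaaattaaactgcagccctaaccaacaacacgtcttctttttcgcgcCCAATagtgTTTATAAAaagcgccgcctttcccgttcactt
HIST1H2AC, chr6:26123927-26124144, plus strand, facing HIST1H2BC: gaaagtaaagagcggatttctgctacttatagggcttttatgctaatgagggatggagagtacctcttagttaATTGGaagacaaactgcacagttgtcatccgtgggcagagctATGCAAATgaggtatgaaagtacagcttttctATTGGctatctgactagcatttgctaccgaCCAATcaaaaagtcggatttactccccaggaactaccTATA
HIST1H1C, chr6:26056471-26056720, minus strand: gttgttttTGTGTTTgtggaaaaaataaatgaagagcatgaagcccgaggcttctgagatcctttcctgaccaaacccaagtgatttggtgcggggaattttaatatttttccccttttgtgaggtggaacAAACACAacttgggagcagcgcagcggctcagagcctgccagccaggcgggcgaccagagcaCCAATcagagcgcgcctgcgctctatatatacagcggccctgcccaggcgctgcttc
HIST1H3H, chr6:27809801-27810050, plus strand: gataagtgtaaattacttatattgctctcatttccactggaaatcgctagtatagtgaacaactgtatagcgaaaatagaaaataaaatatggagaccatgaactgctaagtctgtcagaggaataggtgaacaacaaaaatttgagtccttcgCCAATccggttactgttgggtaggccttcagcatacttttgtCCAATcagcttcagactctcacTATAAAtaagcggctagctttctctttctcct
HIST1H4E, chr6:26204360-26204551, plus strand: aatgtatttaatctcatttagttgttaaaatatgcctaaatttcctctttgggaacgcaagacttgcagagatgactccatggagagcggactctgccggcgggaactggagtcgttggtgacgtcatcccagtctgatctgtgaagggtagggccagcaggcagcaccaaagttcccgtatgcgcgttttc
The closing capitals of the HIST1H2AC stretch begin a TATAAA match that runs past the deposited start. A RefSeq window of 250 bases before to 50 after the start could be matched for 61 of the 71 genes. The octamer was present in 68.8% of the 16 H2A windows and 69.2% of the 13 H2B windows, in none of the H1, H3 and H4 windows, and in 1.77% of all 35116 RefSeq windows. AAACACA was present in all 6 H1 windows and in 5.64% of all windows, with 3 further matches among the other histone genes. TATAAA was present in 68.9% of the 61 windows against 11.5% of all windows, and CCAAT in 83.6% against 34.6%, but CCAAT in only 23.1% of the 13 H4 windows. The 4 motifs were all absent from the HIST1H4E window, which says only that these letters are not in it.

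The libraries held between 21437267 and 27183692 counts. Before any treatment effect is described, replicates 1 and 2 of both groups stood apart from replicates 3 and 4. Deviations from the group means correlated positively between libraries of those 2 sets and negatively across them. The histone genes took part in this: of the 37 that entered the test, 30 had a higher mean in the 4 libraries of replicates 3 and 4 than in the other 4, and 9 were over 2-fold higher. The median log2 difference was 0.57 for them against -0.07 for all 17413 tested genes, of which 45.7% were higher and 7.14% over 2-fold higher. HIST1H2BD, which encodes an H2B, averaged 4.80 CPM (counts scaled to library size) in replicates 1 and 2 and 16.1 CPM in replicates 3 and 4. What separates the 2 sets of cultures is not in the labels. Among 13 urothelial and epithelial markers, the keratins KRT8, KRT19 and KRT7 were abundant in all libraries. Their mean levels in the controls were 1800.6, 1566.3 and 1327 CPM. On the same list UPK3A was too low to test, and TP63 and UPK2 averaged 0.884 and 7.87 CPM over the 8 libraries. UPK1B averaged 98.9 CPM and GATA3 58.2 CPM. Of 12 markers of fibroblasts, endothelium and leukocytes, 10 were too low to test, and the 12 together summed to 20.64 to 28.97 CPM in controls and 18.91 to 29.27 CPM in treated libraries. The collagen gene COL1A1 averaged 20.1 and 18.6 CPM of these sums in controls and treated libraries, and the endothelial cadherin gene CDH5 3.45 and 3.25 CPM, with 5.16 CPM in treated replicate 3.

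Histone reads were sparse. They made up 0.0255% ± 0.00114 (SD, n = 4) of all counts in the controls, from 0.0241 to 0.0267%. With glucose oxidase they made up 0.0177% ± 0.00355 (SD, n = 4), from 0.0125 to 0.0206%, so the groups did not overlap. Treated replicate 2 was the lowest library, at 0.0125% (95% Wilson interval 0.0120 to 0.0130%, counting error only), and without it the treated mean was 0.0194%. A single gene, HIST3H2A, gave a large part of these reads, and without it the shares were 0.0188% in controls and 0.0127% with glucose oxidase. On the scale of CPM with TMM normalisation (edgeR's trimmed mean scaling, used for every CPM value here), the summed level was 224.65, 222.26, 347.17 and 284.5 in control replicates 1 to 4. It was 170.59, 107.26, 215.6 and 197.59 in treated replicates 1 to 4. All treated sums lay below all control sums, with a narrow gap between treated replicate 3 and control replicate 2. RNA per cell was not measured, and fewer cells in S phase and less RNA per cell cannot be told apart in these sums.

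**Figure D1:**
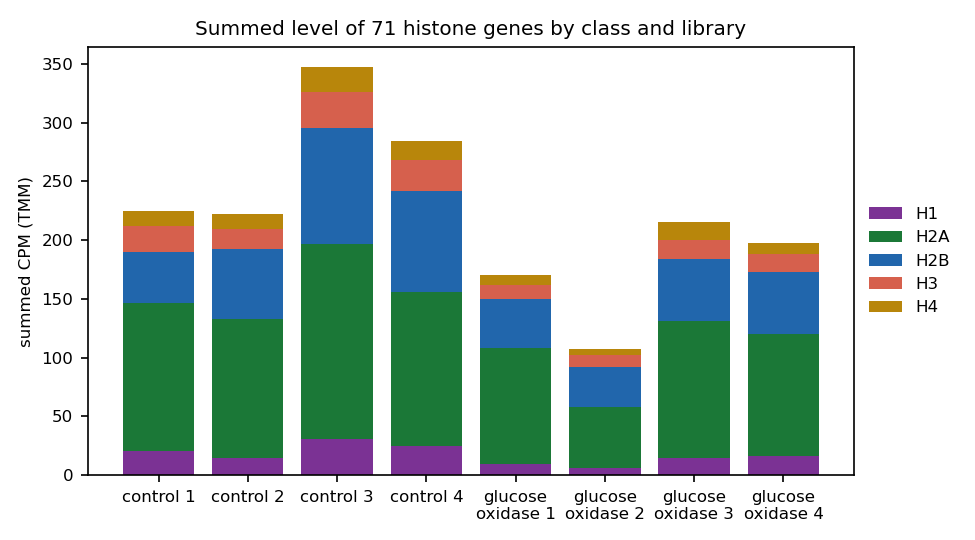
Summed CPM (TMM) of the 71 histone genes in each library, stacked by histone class (H1, H2A, H2B, H3, H4). Treated replicate 2 is the lowest bar at 107.26 CPM and control replicate 3 the highest at 347.17 CPM, and H2A is the largest block in every library.

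Of the 71 genes, 64 had at least 1 read in some library and 37 passed the filter on low counts (edgeR's filterByExpr, a level of about 0.425 CPM in at least 4 libraries). Of these 37, 24 reached that level in all 8 libraries, and 4 (HIST1H2BL, HIST1H3C, HIST1H3I and HIST1H4E) reached it in only 1 treated library, so they entered through the controls. A stricter level of 1 CPM in 4 libraries was reached by 25. The 34 that did not enter the test had at most 71 reads each over all 8 libraries. The H2A genes held 52.0% of all histone reads, the H2B genes 26.4%, H3 8.37%, H1 7.55% and H4 5.65%.

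Which genes had reads went with the shape of their gene model. Models that run more than 100 bases past the stem-loop numbered 23, of which 19 were tested, and these 23 held 67.6% of the histone reads. Models that stop within 100 bases of the stem-loop numbered 9, with 5 tested and 7.35% of the reads. Most of these reads, 1859, were from HIST1H2BD, which is placed here by its transcript with the match. Its other transcript has no match and a 3′ untranslated region of 384 bases, so these reads need not come from a model that stops near the stem-loop. A further 4 genes have a 3′ untranslated region without a match, and HIST1H2BJ, encoding an H2B, held most of their 4.55% of the reads. The annotation of the remaining 35 genes stops at the stop codon, so reads beyond it could not be counted for them. They gave 11 tested genes and 20.5% of the reads, most of it from HIST1H2BK and HIST1H1C, with 3219 and 2763 reads. Of the 23 long models, 16 hold the poly(A) signal AATAAA after the stem-loop, and 13 of these were tested. HIST3H2A, with 11141 reads the most abundant of the 71, is not among them: its model runs 390 bases past the stem-loop with no AATAAA. Because the models differ in how much of a transcript they can count, these shares do not measure how much RNA had a tail.

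**Figure D2:**
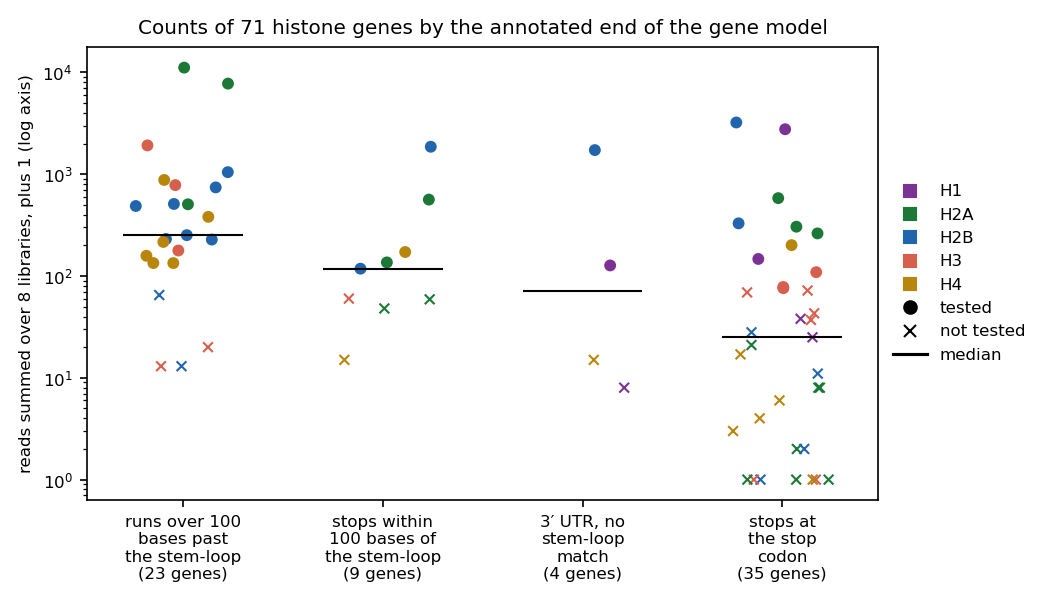
Reads per gene summed over the 8 libraries, plus 1, on a log axis, for the 71 histone genes grouped by where the annotated gene model ends; points are genes coloured by class, crosses are genes that did not pass the filter, and lines are medians. Of 23 models that run on past the stem-loop 19 were tested, and of 35 that stop at the stop codon 11 were tested. HIST1H2BD is placed by its transcript with the stem-loop match.

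RNAs that usually carry no long tail gave a rough view of the same question. Of 12 such RNAs on the list, RN7SL2, the RNA of the signal recognition particle, was the only one tested, at 160.3 ± 75.0 CPM in controls and 127.8 ± 6.85 CPM with glucose oxidase (SD, n = 4). RN7SK, RN7SL1, RMRP, RPPH1, RNU7-1, SCARNA2 and RNY1 were listed at 0 in all 8 libraries, and SNORD3A, the U3 RNA, averaged 0.142 CPM over them. Several of these RNAs are very short or have near-identical copies, so a 0 here does not show that untailed RNA was missing from the libraries.

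The number of genes at 0 followed the annotation as well. All 5 histone genes with at least 50% of their exon bases covered by exons of another gene had no read in any library, against 2 of the other 66. HIST1H3D and HIST1H2AD lie within the exons of AL031777.3 on the same strand (100% and 98.0%). HIST2H3PS2 lies in AC239798.4 (99.5%), HIST1H2AK opposite exons of HIST1H2BN (100%) and HIST1H2AM in those of HIST1H3J (88.0%). The 2 others at 0 were HIST1H2BB and HIST1H4G. A total of 0 reads allows up to 0.0157 CPM over the 8 libraries together (3 counts), which for the overlapped genes says nothing about expression, since the labels do not say how reads in shared exons were assigned.

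In the comparison of glucose oxidase with control, no histone gene passed an adjusted p of 0.05 in edgeR's quasi-likelihood test without the replicate number, and neither did any of the 17413 tested genes (0%). At an unadjusted p below 0.05 there were 6 histone genes of 37, with 7.37% of all tested genes. DESeq2 without the replicate number called 1 histone gene, HIST1H3H (adjusted p = 0.0228), where 0.287% of all genes were called lower and 0.218% higher. Equal-numbered libraries correlated, but so did unequal numbers within replicates 1 and 2 and within 3 and 4, at 0.443 to 0.652. The correlation therefore does not single out equal numbers. With the replicate number as a block, 13 of the 37 fell and none rose (edgeR, adjusted p below 0.05). DESeq2 with the block called 12 lower and none higher. In the edgeR fit 6.97% of all tested genes were called lower and 7.51% higher, and in the DESeq2 fit 9.77% and 8.25%. The median log2 change of the 37 was -0.67, against -0.01 over all tested genes, and 35 of the 37 lay below 0. These counts are over measured genes and not over the 71, since the filter can keep a gene through 1 group alone. Without the 4 genes that entered through the controls, a choice made after seeing the data, 12 of 33 were called lower, the median was -0.57 and 31 lay below 0. In what follows, "fell" and "rose" refer to this blocked fit, and adjusted p-values are from it unless another is named. Blocked values describe the difference within replicate numbers, and without the block the same 13 genes had adjusted p-values of 0.477 to 0.698. Scaled by total counts, the blocked fit called 10 of them lower (3.07% of all tested genes lower, 9.62% higher). A fit that replaced the block by the division into replicates 1 and 2 and replicates 3 and 4 also called 10 lower (3.07% lower, 3.72% higher). HIST3H2A, HIST1H4I and HIST1H2BC were the 3 genes lost in each of these fits.

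**Figure D3:**
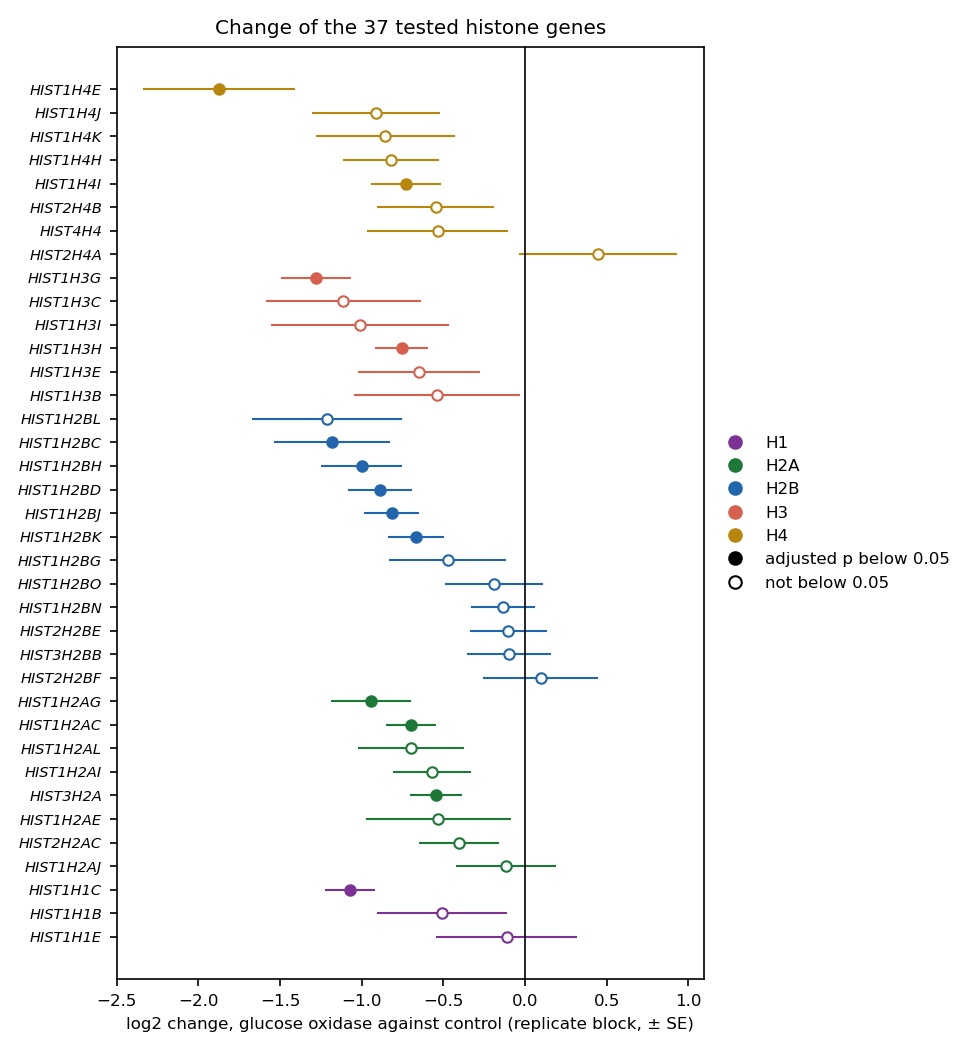
Log2 change with glucose oxidase against control (edgeR with replicate block, bars are 1 SE) of the 37 tested histone genes, ordered by class; filled points have an adjusted p below 0.05. The 13 filled points all lie left of 0, from -1.87 for HIST1H4E to -0.55 for HIST3H2A, and 2 open points lie right of 0.

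The linker histone H1 binds DNA where it enters and leaves the nucleosome. HIST1H1C (chr6:26055787-26056428, minus strand) was measured at 19.2, 12.6, 27.4 and 22.5 CPM in control replicates 1 to 4 and at 8.65, 5.21, 12.7 and 13.2 CPM in treated replicates 1 to 4. Every treated library lay below the control of its number, and the groups overlapped only slightly, at control replicate 2. HIST1H1C fell by 1.07 on the log2 scale (SE 0.153, adjusted p = 6.03e-05, without the block 0.624). The other H1 genes were near the limit of detection: HIST1H1B averaged 0.943 ± 0.435 and 0.653 ± 0.253 CPM (SD, n = 4 each), and HIST1H1E 0.700 ± 0.367 and 0.659 ± 0.420 CPM, in controls and treated libraries. Neither passed the test, with adjusted p-values of 0.433 and 0.898, and the sign of the HIST1H1E change depends on the scaling.

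H2A and H2B form the dimers at the outside of the nucleosome core and held most of the histone reads. HIST3H2A (chr1:228456979-228457873, minus strand) was the most abundant per length as well, at 76.2 ± 9.55 FPKM in controls and 53.7 ± 15.9 FPKM with glucose oxidase (SD, n = 4; the authors' values per kilobase of gene model). HIST1H2BK followed at 58.02 ± 29.4 and 34.03 ± 10.2 FPKM, with HIST1H1C at 31.7 ± 10.3 and HIST1H2AC at 30.2 ± 8.62 FPKM in controls. The first pair, and also the second, do not differ beyond their spread over control libraries, and a model that stops at the stop codon has a short length that raises its FPKM.

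HIST3H2A stood at 70.3, 68.3, 78.0 and 59.1 CPM in the controls and at 59.3, 28.3, 55.6 and 51.2 CPM in the treated libraries. Treated replicate 2 was by far the lowest, and treated replicate 1 just reached the lowest control. The gene fell by 0.55 (log2, SE 0.159, adjusted p = 0.0205), which did not pass without replicate 2, with total counts (adjusted p = 0.104) or with the division of replicates in place of the block (adjusted p = 0.105). HIST1H2AC (chr6:26124145-26139116, plus strand) stood at 43.1, 37.5, 67.0 and 55.3 CPM and with glucose oxidase at 30.3, 14.6, 48.3 and 39.2 CPM. Each treated culture was lower than its control, although replicates 3 and 4 were higher than 1 and 2 in both groups. HIST1H2AC fell by 0.70 (SE 0.153, adjusted p = 0.00306), again not without replicate 2. HIST1H2AG (chr6:27133042-27135291, plus strand) fell by 0.94 (SE 0.247, adjusted p = 0.0113), from 2.11, 3.65, 4.75 and 4.08 CPM to 1.45, 1.64, 2.48 and 1.89 CPM. It was not called without replicate 2 or without replicate 4. Its treated libraries lay close together, and only control replicate 1 was within their range. HIST2H2AC, at 3.54 ± 1.13 and 2.68 ± 0.862 CPM, did not pass (adjusted p = 0.292), nor did the remaining 4 tested H2A genes. All 8 tested H2A genes had a log2 change below 0, from -0.94 to -0.12.

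Among the H2B genes 5 of 12 tested fell and none rose, against 6.97% lower and 7.51% higher over all tested genes. HIST1H2BJ (chr6:27125897-27132750, minus strand) stood at 9.79, 9.53, 15.6 and 12.7 CPM in controls and at 6.33, 4.41, 8.52 and 7.97 CPM with glucose oxidase. All treated libraries were below all controls, and the gene fell by 0.82 (SE 0.170, adjusted p = 0.00206). HIST1H2BD stood at 4.87, 7.10, 23.3 and 19.6 CPM and at 4.58, 2.65, 9.36 and 11.9 CPM. Within each number the treated library was lower, by little in replicate 1, while the groups overlapped widely, with replicates 3 and 4 higher than 1 and 2 in both (fall of 0.89, SE 0.194, adjusted p = 0.00301).

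HIST1H2BK stood at 10.002, 17.2, 34.3 and 27.2 CPM in controls and at 10.9, 9.02, 15.5 and 17.1 CPM in treated libraries. It was lower in 3 of the 4 pairs and slightly higher in replicate 1. It fell by 0.67 (SE 0.171, adjusted p = 0.0096), and was not called when replicate 2, 3 or 4 was left out. Of its 75-base stretches 50.5% also occur in other genes, among them HIST1H2BO, so its reads are uncertain. HIST1H2BH fell by 1.00 (SE 0.250, adjusted p = 0.00822) from 3.61 ± 1.75 to 1.81 ± 0.882 CPM (SD, n = 4 each), and HIST1H2BC from 1.95 ± 1.07 to 0.872 ± 0.613 CPM with a log2 change of -1.18 (SE 0.357, adjusted p = 0.0255). Both were lower in all 4 pairs, and HIST1H2BC was not called without replicate 2 or 4, with total counts (adjusted p = 0.0707) or with the division of replicates (0.0574). HIST2H2BF, the H2B gene with the highest estimate, showed a log2 change of 0.10 (adjusted p = 0.894) and changed sign when single libraries were left out.

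**Figure D4:**
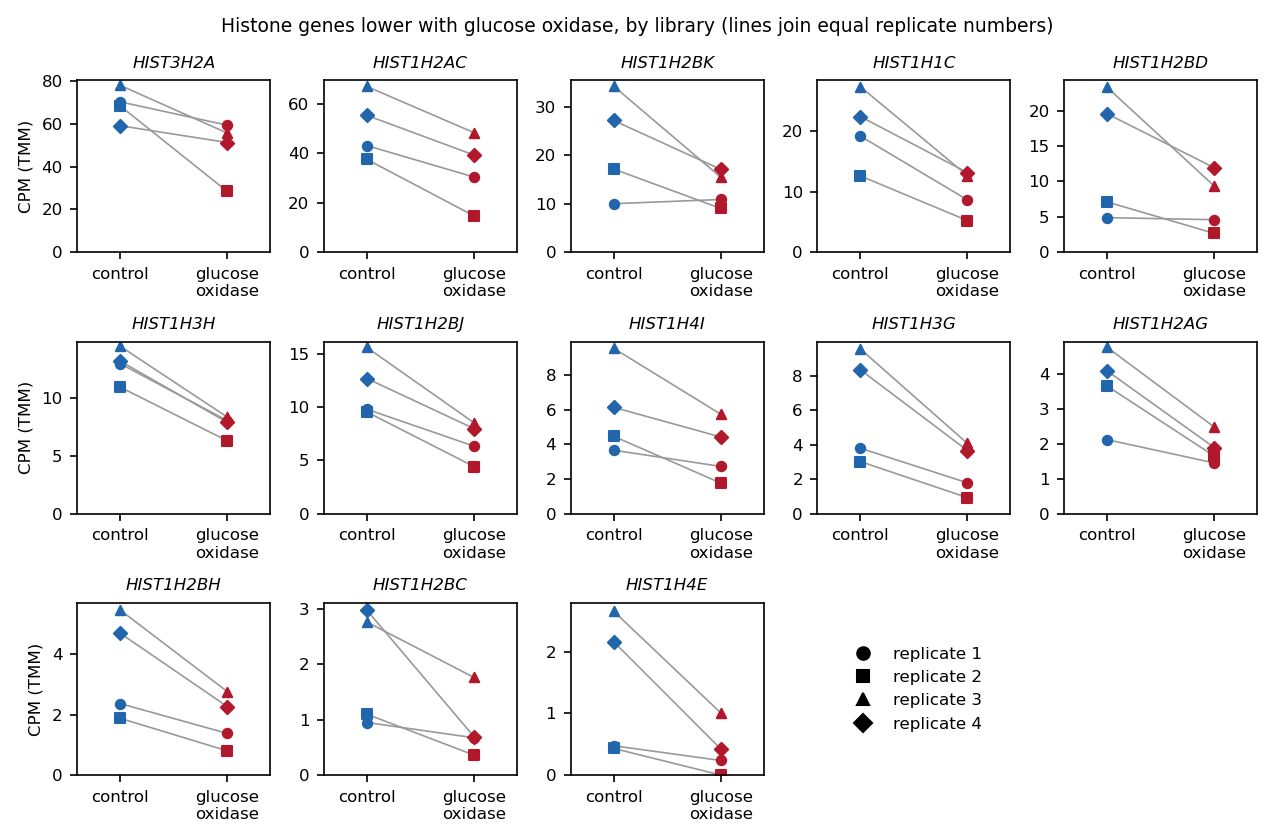
CPM (TMM) in each of the 4 control and 4 treated libraries for the 13 histone genes with an adjusted p below 0.05 in the blocked fit; symbols are replicate numbers and grey lines join equal numbers. Lines slope down in all 4 replicates for each gene other than HIST1H2BK, which rises slightly in replicate 1 (10.002 to 10.9 CPM).

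H3 and H4 form the tetramer at the centre of the nucleosome, and 4 of their 14 tested genes fell, against 6.97% of all tested genes. HIST1H3H (chr6:27810064-27811300, plus strand) had a narrow spread: 12.98, 10.9, 14.5 and 13.2 CPM in controls and 8.04, 6.30, 8.35 and 7.90 CPM with glucose oxidase. The groups were clearly apart, and replicates 3 and 4 were only a little higher than 1 and 2. The gene fell by 0.76 (SE 0.161, adjusted p = 0.00257), and in the authors' deposited table its log2 fold change is -0.76 with an adjusted p of 0.0694. HIST1H3G (chr6:26269405-26271815, minus strand) stood at 3.79, 3.02, 9.56 and 8.35 CPM and at 1.78, 0.922, 4.07 and 3.66 CPM. It fell by 1.28 (SE 0.216, adjusted p = 0.000345), with log2 ratios of -1.71 to -1.09 in the 4 pairs. HIST1H3E, at 1.16 ± 0.272 and 0.743 ± 0.220 CPM, did not pass (adjusted p = 0.26).

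The H4 genes were sparse. HIST1H4I (chr6:27138588-27139881, plus strand) stood at 3.66, 4.47, 9.56 and 6.14 CPM in controls and at 2.73, 1.76, 5.75 and 4.43 CPM in treated libraries, and fell by 0.73 (SE 0.212, adjusted p = 0.0211), though not without replicate 2 or 3, nor with total counts (adjusted p = 0.0872) or the division of replicates (0.0518). HIST1H4E (chr6:26204552-26206038, plus strand) had the lowest estimate of the 37, a fall of 1.87 (SE 0.466, adjusted p = 0.008). It rests on few reads: 0.474, 0.431, 2.65 and 2.16 CPM in controls and 0.236, 0, 1.01 and 0.424 CPM with glucose oxidase, and it was not called without replicate 4. It is 1 of the 4 genes that entered the test through the controls. HIST1H4H was lower in every treated library than in every control, at 2.54 ± 0.3 and 1.53 ± 0.677 CPM, but its adjusted p was 0.0586. HIST2H4A and HIST2H4B are near-identical copies (96.2% and 97.1% of their 75-base stretches occur elsewhere), and their log2 changes of 0.45 and -0.55 (adjusted p = 0.589 and 0.33) are uncertain for that reason. The HIST2H4A value turned below 0 without treated replicate 3, which was at 1.85 CPM while the 7 others were at 0.288 to 0.882 CPM.

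Across the 37 tested genes, 20 were lower in all 4 pairs and none was higher in all 4. Of all tested genes 17.1% were lower and 16.9% higher in all 4 pairs. The 37 include the 4 genes that entered through the controls, which are also in the pair medians and counts below. Among them, HIST1H2BL and HIST1H4E were lower in all 4 pairs. Treated libraries lay below all controls for 4 genes, HIST1H2BJ, HIST1H3H, HIST1H4H and HIST1H2BL (2.58% of all tested genes), and above them for none (2.46%). Of these 4, HIST1H2BL entered the test through the controls. Pair by pair, the median log2 ratio of the 37 was -0.44, -0.85, -0.77 and -0.61 in replicates 1 to 4, with 28, 33, 31 and 31 genes lower. The medians over all tested genes were within 0.0132 of 0 in each pair. Replicate 2 thus held the largest difference and replicate 1 the smallest. A direct test of whether the treatment difference varied between replicates 1 and 2 and replicates 3 and 4 (edgeR interaction) called none of the 37, and none had an unadjusted p below 0.05. In this test 0.212% of all genes were called in 1 direction and 0.0172% in the other.

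Called genes were mostly the abundant ones. Above a mean level of 5 CPM 7 of 8 fell, between 1 and 5 CPM 5 of 17, and below 1 CPM 1 of 12 tested, while the median log2 changes of these groups were -0.73, -0.57 and -0.59. Over all tested genes 8.68%, 5.00% and 1.75% were called lower at these levels, so the share called rises with the level there too. By gene model, 9 of the 19 tested genes that run on past the stem-loop fell, 1 of 5 that stop near it, 1 of 2 without a match and 2 of 11 that stop at the stop codon. Their median log2 changes were -0.65, -0.89, -0.46 and -0.67. In the same fit 6.97% of all tested genes were called lower. Of the genes that entered through the controls, HIST1H4E is 1 of the 9, HIST1H2BL is 1 of the 5, and HIST1H3C and HIST1H3I are among the 11. The 1 of 5 that fell is HIST1H2BD, which also has a transcript without the stem-loop match. By locus, 12 of 29 tested HIST1 genes on chromosome 6 fell with a median of -0.76, and the 5 tested HIST2 genes on chromosome 1 did not pass (lowest adjusted p = 0.292, median log2 change -0.10). The difference between loci was not tested. Among the 28 tested genes with under 20% of their 75-base stretches in other genes, 12 fell and all 28 estimates were below 0. These 28 include HIST1H2BL, HIST1H3C, HIST1H3I and HIST1H4E, which entered through the controls. The same genes are among the 29 HIST1 genes and the 12 below 1 CPM, where HIST1H4E was the gene that fell. Among the 9 with at least 20%, 1 fell and 7 were below 0. HIST2H2AC, HIST2H2BF, HIST2H4A and HIST2H4B are among these 9, so this division and the one by locus overlap.

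Short genes as a whole had estimates below 0 more often, which bears on gene models of this size. The shortest 10% of tested genes (models up to 1201 bases) had a median log2 change of -0.19, 66.5% of them lay below 0, and 9.30% of them were called lower and 1.44% higher. The 20 histone genes among them had a median of -0.68 and the 17 longer ones -0.65. Of the genes that entered the test through the controls, HIST1H2BL, HIST1H3C and HIST1H3I are among the 20 and HIST1H4E is among the 17. With an offset for gene length in the blocked fit, 9 of the 13 genes were still called (6.74% of all tested genes were called lower and 5.86% higher) and the median of the 37 was -0.53. HIST1H2BC, HIST1H2BK, HIST1H4I and HIST3H2A were lost, with adjusted p-values of 0.0609 to 0.0941.

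Where 2 histone genes share a promoter in opposite directions, their estimates could be set side by side, and in 6 such pairs both genes were tested. HIST1H2BJ and HIST1H2AG start 292 bases apart and both fell, with log2 changes of -0.82 and -0.94. HIST1H2BC and HIST1H2AC start 219 bases apart and both fell, with log2 changes of -1.18 and -0.70, although their control levels were 1.95 and 50.7 CPM. HIST3H2A and HIST3H2BB start 234 bases apart: the first fell by 0.55, and the second had a log2 change of -0.10 (SE 0.256, adjusted p = 0.845) at 2.66 CPM in controls. HIST2H2BE and HIST2H2AC, 323 bases apart, had changes of -0.10 and -0.40, and neither passed. Nor did either gene of the pair HIST1H2BG and HIST1H2AE, 283 bases apart (-0.47 and -0.53), or of HIST1H2BL and HIST1H2AI, 268 bases apart (-1.21 and -0.57). Of the 12 genes that fell and have a RefSeq window, 11 hold CCAAT, 6 TATAAA and 5 the octamer. Of the 22 tested genes with a window that did not pass, 16, 13 and 7 do.

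The factors that make and destroy histone messenger RNA were mostly not called by the same test. Over all tested genes it called 7.51% higher and 6.97% lower, so most genes were not called in general. Of 23 genes for 3′ end processing and histone gene transcription, 1 rose and none fell, with a median log2 change of 0.06. The one that rose was ZNF473, a zinc finger protein of the U7 particle that cuts histone transcripts, at 25.2 ± 2.86 CPM in controls and 35.9 ± 2.26 CPM with glucose oxidase (SD, n = 4; log2 change 0.52, SE 0.136, adjusted p = 0.0115). SLBP stood at 255 ± 103 and 195 ± 55.0 CPM, with a log2 change of -0.34 (adjusted p = 0.127). NPAT, the coactivator of histone gene transcription, stood at 68.5 ± 34.9 and 68.6 ± 23.2 CPM (adjusted p = 0.743). None of 11 genes for histone messenger RNA decay passed in either direction (lowest adjusted p = 0.0573). Among 21 histone chaperones and related enzymes, 1 fell and none rose: HAT1, which acetylates newly made H4, by 0.61 (SE 0.161, adjusted p = 0.0118), from 603 ± 205 to 403 ± 154 CPM. HAT1 did not pass with the division of replicates in place of the block (adjusted p = 0.0714), which left no chaperone called.

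The 12 histone variants listed as replication-independent, with transcripts that mostly carry poly(A) tails, together averaged 4956 CPM in controls and 4567 CPM with glucose oxidase. Single tested variants averaged 45.0 to 1484 CPM over the 8 libraries, where HIST3H2A averaged 58.8 CPM. Of 11 tested, 1 rose and 2 fell, against 7.51% higher and 6.97% lower over all tested genes. Their median log2 change was -0.16. H1F0, the linker histone of resting cells, rose by 0.56 (SE 0.190, adjusted p = 0.0451), with 2181, 1450, 464 and 485 CPM in controls and 1964, 2241, 847 and 902 CPM with glucose oxidase. It was lower, not higher, in treated replicate 1, and it was high in replicates 1 and 2 of both groups. H2AFJ, an H2A variant, fell by 0.69 (SE 0.153, adjusted p = 0.00325) and H3F3A, which encodes H3.3, by 0.53 (SE 0.167, adjusted p = 0.033). H3F3B, which encodes the same protein, had a log2 change of -0.03 (adjusted p = 0.933). With the division of replicates in place of the block H1F0 and H3F3A did not pass (adjusted p = 0.11 and 0.0866), which left none higher and 1 lower. H3F3A did not pass with total counts either (0.0657).

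S phase genes gave no common direction. Of 33 tested, 2 rose and 1 fell, against 7.51% higher and 6.97% lower over all tested genes. Their median log2 change was 0.01. DTL, an adaptor of a ubiquitin ligase active in S phase, rose by 0.67 (SE 0.139, adjusted p = 0.00198) and the transcription factor gene E2F2 by 0.53 (SE 0.148, adjusted p = 0.0159). The summed level of the 33 ranged from 4915 to 8090 CPM in controls and from 4909 to 6086 CPM in treated libraries. Among 12 tested urothelial markers, KRT5, KRT8 and KRT19 fell and GATA3 rose. KRT8 and GATA3 did not pass with the division of replicates (adjusted p = 0.0998 and 0.0614), nor KRT8 with total counts (0.0718). The part of cell cycle state and of cell composition in the lower histone counts was not tested.

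The authors' deposited table lists 62 of the 71 genes. Of these 55 have a log2 fold change below 0, 10 have a p-value below 0.05 and 0 an adjusted p-value below 0.05. For all genes it holds 36 higher and 40 lower at that threshold.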

How the data were processed

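Counts per gene were deposited by the authors as whole numbers, not normalised. The submitters' processing notes name the build GRCh38.p13, alignment software HISAT2 2.0.5, the counter featureCounts 1.5.0-p3 and, for testing, DESeq2 1.20.0. The strand setting and any poly(A) selection are not given in the sources used here. Per the file headers, the authors also deposited FPKM values and a table with their log2 fold changes and p-values. Its normalised values, a signal of counts divided by size factors, were deposited by the authors and are printed nowhere here. Gene length in bases is as deposited.

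All 17413 genes passing filterByExpr were fitted with edgeR 4.0.16 (R 4.3.3, quasi-likelihood, TMM, Benjamini-Hochberg adjustment), without and with the replicate number as a block, and with DESeq2 1.42.0. Scripts were tested on simulated data. Equal-numbered libraries deviated together (r = 0.532, 0.678, 0.59 and 0.503 for replicates 1 to 4), which is over the 0.1 required, so the blocked values are printed. Within replicates 1 and 2, and within 3 and 4, unequal numbers also correlated, at 0.443 to 0.652; the highest of these, between control 3 and treated 4, exceeds the value for control 3 and treated 3. No replicate pair of a group agreed within counting noise. P-values without the block are set against the spread between cultures of a group. Those of the blocked fit are set against the spread of the treated and control difference over replicate numbers. In both kinds of fit the spread used for a gene is estimated in part from the other genes. It is therefore not the spread of that gene's own values alone.

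The histone genes and all lists were chosen with earlier results of these data known. Genes are named where they were among the 3 most abundant tested genes of a class, were called with or without the block, or were among the 2 highest or 2 lowest estimates. From the lists, SLBP, NPAT, the called genes of smallest adjusted p and the most abundant markers are named. HIST3H2BB, HIST2H2BE, HIST1H2BL, HIST1H2BG, HIST1H2AE, HIST1H2AI, HIST1H3C, HIST1H3I, CDH5, H3F3B, UPK1B, UPK2, UPK3A, TP63 and the genes at 0 were named after their values were seen. Wilson intervals (95%) and the floor of 3 counts cover counting error only. A called gene of the lists is not reported here.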

Additional observations from a re-analysis of the deposited data

How the results depend on the processing

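No histone gene passed without the replicate block under DESeq2 size factors, total counts, no filter or when any 1 library was left out, and DESeq2 called 1. Pairing by replicate number gave 13 lower with edgeR, 12 with DESeq2 (HIST1H4E got no adjusted p there), 10 with total counts, 13 with no filter and 9 with a length offset. Counted without the 4 genes that reached the filter level in only 1 treated library, chosen after seeing the data, it gave 12. A term for replicates 1 and 2 against 3 and 4 gave 10. Leaving out 1 replicate number in the blocked fit gave 7 to 13 (13, 7, 11 and 9 without replicates 1 to 4, of 37, 36, 35 and 33 histone genes tested). Of all tested genes, 717 of 17202, 638 of 17196, 507 of 17765 and 908 of 17744 were called lower in these fits. Called higher were 917, 864, 593 and 978. Without replicate 2 HIST1H2AC, HIST1H2AG, HIST1H2BC, HIST1H2BK, HIST1H4I and HIST3H2A were lost. No alternative called a histone gene higher. All genes called under each alternative were among the 13. Total counts moved the blocked median of all genes from -0.01 to 0.10 and their calls from 1308 higher and 1213 lower to 1675 and 535; the histone median was then -0.55. The median log2 change of the histone genes was -0.53 to -0.70 under the settings that kept all libraries, and -0.85 to -0.46 when libraries were left out, with -0.48 without control replicate 3 and -0.46 without treated replicate 2. Without the filter 64 histone genes entered, and the blocked fit called 976 of all 39774 genes lower and 1317 higher. Without HIST3H2A the shares of counts were 0.01883% and 0.01266%.

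The list counts, all 0 without the block, became with it 1 higher for 3′ end processing, 1 lower for chaperones, 1 higher and 2 lower for variants, 2 higher and 1 lower for S phase, and 1 higher and 3 lower for urothelial markers. Under the division of replicates in place of the block these counts were 1, 0, 0 and 1, 2 and 1, and 0 and 2. Over all tested genes the blocked fit called 7.51% higher and 6.97% lower, and the fit with the division 3.72% and 3.07%. HIST1H1E turned to 0.0594 with total counts, 0.0099 with block and total counts and 0.0363 with block and length offset. It was 0.189 and 0.127 without control replicate 3 and 4, 0.144 and 0.170 without treated replicate 1 and 2, and 0.0172 and 0.0595 in the block without number 1 and 3, within a range of -0.57 to 0.19. HIST2H2BF turned to -0.141 without control replicate 3, -0.0487 and -0.0277 without treated replicate 1 and 2, and -0.0287 and -0.0822 in the block without number 1 and 3. HIST2H4A turned to -0.0436 without treated replicate 3 and -0.183 in the block without number 3. Of 461 alternative values for 21 named histone genes, 16 had the opposite sign. The causes were not tested. At a median of 1.59 CPM among the tested genes, depth limits which of the 71 could show a change.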
